A study of Mus musculus with 11 samples.

Results

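The 10 genes described here encode exchangeable subunits of BAF, the mammalian SWI/SNF chromatin remodeler, and were chosen by symbol, without use of their measured values, from a deposited table of 38197 genes. They are 5 paralogs typical of stem cells and progenitors, namely Smarca4, Smarcd1, Actl6a, Phf10 and Dpf2, and 5 neuronal paralogs, namely Smarca2, Smarcd3, Actl6b, Dpf1 and Dpf3. All 10 were found in the table. They were followed through the differentiation of wild type E14 mouse embryonic stem cells of strain 129 toward ventral hindbrain neurons, in which the cells grew as a monolayer and received RA (retinoic acid) and SAG (a Smoothened agonist that switches on hedgehog signaling). The unsorted culture was sampled at day 0, before differentiation, and at days 1, 2 and 3, with 2 libraries each, and 3 more libraries came from neural progenitors sorted on the surface protein Prominin-1. Those sorted libraries are called day 3.5 in 1 label and 3 days in another, and their library names carry another project number than the 8 unsorted ones, so sorting, day and project cannot be told apart. All 11 libraries come from 1 cell line and genotype, and the labels do not tell whether a day's libraries are separate cultures, so p-values measure only the spread between libraries, which may be technical.

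BAF complexes are chromatin remodelers that use ATP to move or evict nucleosomes, and several of their positions can be filled by either of 2 or more paralogous proteins. As neural progenitors leave the cell cycle, the progenitor forms of some subunits are known to be replaced by neuronal forms, which gives rise to the neuron-specific complex called nBAF, while embryonic stem cells hold a form of their own called esBAF. The best known replacement is that of the actin-related protein BAF53A by BAF53B, and microRNAs of the miR-9 and miR-124 families are known to take part in it by repressing BAF53A.

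The libraries held 13173675 to 30384601 counts, with the 3 sorted ones the smallest. Marker genes followed the labels for the most part. The summed level of 8 pluripotency markers fell from between 1824 and 2165 CPM (counts scaled to library size, with TMM factors) at day 0 to between 213.5 and 213.8 CPM at day 3, and Pou5f1 and Nanog were below 3 counts in all 3 sorted libraries. Most of the day 3 sum was Sox2, also a progenitor gene, with a mean of 187 CPM at day 0, 194.5 at day 3 and 202.5 after the sort, while Pou5f1 went from 435 to 1.23 CPM at day 3. The 8 neural progenitor markers summed to 2254 to 2637 CPM at day 3 and to 3034 to 3116 CPM after sorting. Vim and Nes made up most of these sums, which include Prom1, the gene of the protein used for sorting. From day 3 to the sorted libraries the means of Sox1 (77.5 to 60.9 CPM) and Pax6 (39.1 to 34.7 CPM) went down. Those of the other progenitor markers went up. The 10 young neuron markers summed to 504.5 to 506.5 CPM at day 0, of which Stmn2 had a mean of 311 CPM, to 218 to 223 CPM at day 1, to 176 to 185 CPM at day 2 and to 1140 to 1313 CPM at day 3, and the sorted progenitors still held 1054 to 1699 CPM of them. The 4 mature neuron markers summed to between 8.47 and 20.1 CPM in every library, with Syn1 the most abundant by group mean. Syt1 went from a mean of 1.18 CPM at day 0 to 4.97 at day 3 and 7.08 after the sort, and Rbfox3 from 0.132 to 1.92 and 1.94. In the sorted libraries Syt1 reached 8.61 CPM, against at most 8.19 for Syn1. The 2 libraries of a day differed along the GC content of the genes, most at day 1, where the Spearman correlation of their log2 difference with GC content was -0.659 across genes, and at day 0, where it was 0.562.

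Over days 0 to 3, 4 of the 5 neuronal paralogs rose, Dpf1 being the exception, and 1 of the 5 stem cell paralogs fell. Smarca2, Smarcd3 and Dpf3 were higher at day 3 than at day 0 by 4.32-, 5.77- and 9.15-fold, Actl6b appeared from no counts at all, and Dpf1 dipped at day 1 and returned to a level not called different from day 0. Actl6a was the single stem cell paralog that was lower at day 3, at 0.545 of its day 0 level. In every library the stem cell paralogs nevertheless supplied most of the transcripts of each family.

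**Figure D1:**
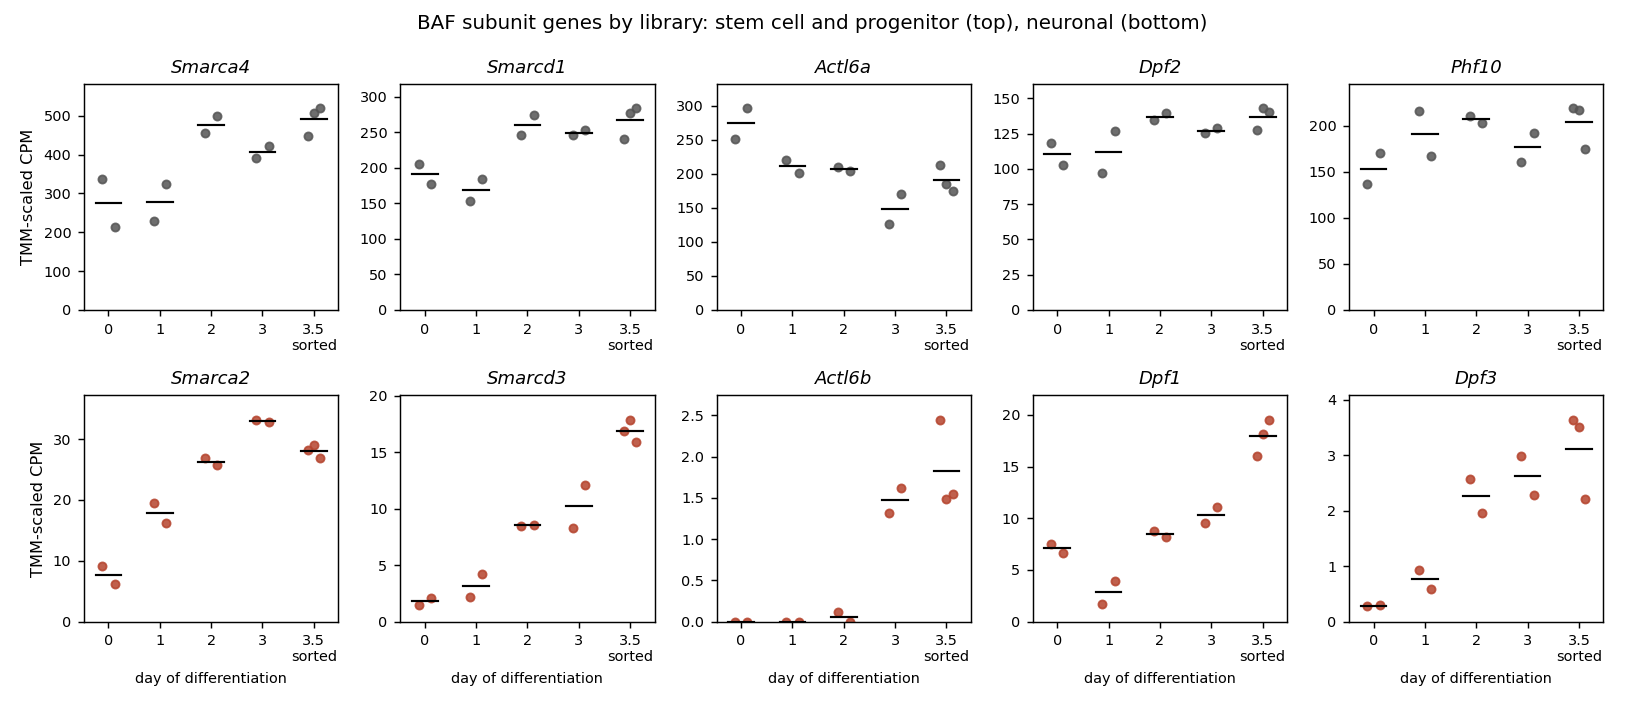
Each panel plots one gene in TMM-scaled CPM on a linear axis from 0 against the day of differentiation, with a point for each library and a bar at the group mean (2 libraries at days 0 to 3, 3 sorted libraries at day 3.5). Smarca2, Smarcd3 and Dpf3 climb from day 0 to day 3, Actl6b is at or near 0 until day 3, and Actl6a is lowest at day 3.

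A test in edgeR of any change over days 0 to 3 called 8 of the 10 genes, against 53.7% of all genes tested, with Phf10 (adjusted p = 0.234) and Dpf2 (adjusted p = 0.296) as the exceptions. Phf10 passed with FPKM and limma (0.0298) and with a GC correction (0.000875). Among the 8, Actl6a was lost without day 0 replicate 2 (0.0561) or day 3 replicate 1 (0.0644), Smarca4 without either day 2 library (0.0842 and 0.12) or either day 3 library (0.0736 and 0.074), and Smarcd1 without day 1 replicate 1 (0.0564) or either day 2 library (0.0519 and 0.0886). Other settings ended the call of Smarcd1 (GC correction, 0.427; unfiltered FPKM, 0.0605), of Actl6b (DESeq2, 0.35), of Dpf1 (FPKM with a pseudocount of 0.1, 0.059, or unfiltered, 0.087) and of Smarca4 (FPKM, 0.0843, 0.087 and 0.141, and the replicate block, 0.0702). For day 3 against day 0 it called 4 of 10 higher, against 27.6% of all genes, and 1 of 10 lower, against 26.3%. All 4 higher genes belonged to the 5 neuronal paralogs, whose median log2 fold change was 2.53, and the 1 lower gene belonged to the 5 stem cell paralogs, whose median was 0.21. Over all genes tested the median was 0.016. Actl6b passed the filter on low counts only through its day 3 libraries, and Dpf3 had 8 and 7 counts at day 0, below the minimum of 10, so both could enter the test only by being high later. Nothing is therefore read from the calls of these genes, nor from their part in the count of 4 or in the median of 2.53.

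The 2 ATPases that drive the complex are Smarca4 (BRG1) and Smarca2 (BRM). BRG1 is the motor of esBAF and is needed for stem cell self-renewal. Smarca4 lies on chromosome 9 at chr9:21616169-21704230 and Smarca2 on chromosome 19 at chr19:26605050-26778322, both on the plus strand of GRCm38.

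Smarca2 had 9.11 and 6.21 CPM on day 0, 19.4 and 16.1 on day 1, 26.8 and 25.8 on day 2, 33.2 and 32.8 on day 3, and 28.3, 29.1 and 27.0 in the sorted progenitors. No 2 successive days overlapped, and each later unsorted day was above the day before. The step to day 1 was a log2 fold change of 1.21 ± 0.24 (SE, edgeR, adjusted p = 0.00811), the only rise called among the 10 genes at that step, where 12% of all genes were called higher. At day 3 the gain over day 0 was 2.11 ± 0.24 (adjusted p = 0.000118), and it held in each of the 18 other settings tried. The sorted libraries lay below the day 3 libraries, by -0.23 ± 0.18 on the log2 scale, which was not called (adjusted p = 0.593).

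Smarca4 had 336 and 212 CPM on day 0, 229.5 and 325 on day 1, 454 and 500.1 on day 2, 392 and 422 on day 3, and 448, 506.5 and 520.2 in the sorted progenitors. Days 0 and 1 overlapped and varied widely between their 2 libraries, while every library from day 2 on was above them. The rise from day 1 to day 2 was 0.79 ± 0.24 on the log2 scale (edgeR, adjusted p = 0.049), and against day 0 the day 3 level was 0.57 ± 0.24 higher without being called (adjusted p = 0.0691). Both calls sat at the threshold. The rise at day 2 was lost without day 1 replicate 1 (0.56, adjusted p = 0.242), without either day 2 library (0.86 and 0.72, adjusted p = 0.154 and 0.215) and without either day 3 library (adjusted p = 0.0766 and 0.0771), and the day 3 difference passed without day 0 replicate 1 (0.95, adjusted p = 0.0114) or without either day 1 library (adjusted p = 0.0428 and 0.0415).

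Levels of different genes were compared per length, in the authors' FPKM (fragments scaled to transcript length and library size). Smarca2 made up 8.53% and 6.88% of the summed FPKM of the 2 ATPases on day 0, 22.8% and 12.96% on day 1, 16.9% and 15.8% on day 2, 25.4% and 22.6% on day 3, and 20.6%, 18.5% and 18.8% in sorted progenitors. BRG1 transcripts thus stayed 2.94 to 13.5 times as abundant as BRM transcripts in all 11 libraries. The log2 ratio of Smarca2 to Smarca4 rose by 1.92 from day 0 to day 3 in FPKM and by 1.53 in CPM, and no test was made of it.

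**Figure D2:**
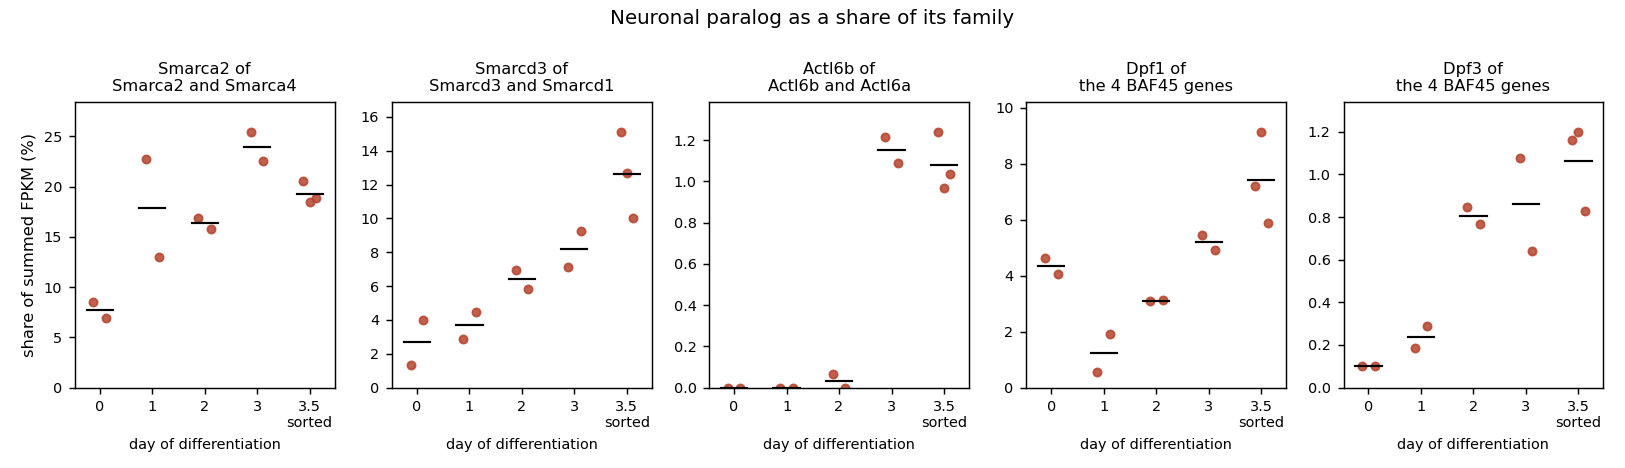
Each panel plots the neuronal paralog as a percentage of the summed FPKM of its family (linear axis from 0, each panel with its own range) against the day, with a point per library and a bar at the group mean. The mean Smarca2 share goes from 7.70% at day 0 to 24.0% at day 3, the Smarcd3 share from 2.67% to 12.6% in sorted progenitors, and the Actl6b share is 0.97% to 1.24% in the day 3 and sorted libraries, after 0.06% in the 1 day 2 library that had counts.

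Actl6a encodes BAF53A, the actin-related subunit of dividing cells, and Actl6b encodes BAF53B, which replaces it in neurons. Actl6a lies at chr3:32706298-32726973 and Actl6b at chr5:137553517-137569582, both on the plus strand of GRCm38. This pair is the part of the switch for which a microRNA is known, and the passenger-strand product miR-9-3p (also written miR-9*) is therefore shown with its seed, bases 2 to 8, in capitals, as given by RefSeq, where 3 mouse genes yield the same mature sequence. A search of the 3′ UTRs of the 10 genes for the DNA letters that pair with this seed, AGCTTTA on the transcript strand, found 1 match in Actl6a and 1 in Smarca2 and none in the other 8. Both matches are printed 5′ to 3′ with the matching letters in capitals, from GENCODE M21 transcripts on GRCm38, plus strand, Actl6a at chr3:32726629-32726654 and Smarca2 at chr19:26777491-26777516.
mmu-miR-9-3p: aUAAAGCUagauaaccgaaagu
Actl6a 3′ UTR: tcaacgtctgtAGCTTTAgtacactc
Smarca2 3′ UTR: catctagaactAGCTTTAgggtagtg

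The Actl6a match begins at base 38 of a 3′ UTR of 371 bases, and 2.4% of 1792 3′ UTRs within 20% of that length hold these letters. For Smarca2, with a 3′ UTR of 952 bases, the share was 7.28% of 2692, and over all 20814 3′ UTRs it was 11.4%. Such a match is a description of letters and not a tested site, and Actl6a fell while Smarca2 rose in these libraries. Mature microRNAs were not measured.

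Actl6a had 251 and 297 CPM on day 0, 220.4 and 202 on day 1, 209.8 and 204 on day 2, 126.7 and 171 on day 3, and 213, 185 and 175 in the sorted progenitors. Both day 3 libraries were below every other library, and the sorted libraries were back above them. Day 3 was lower than day 0 by a log2 fold change of -0.88 ± 0.18 (edgeR, adjusted p = 0.00288), with a range of -1.1 to -0.64 over the 18 other settings, all of them called. No single step was called, with -0.38 ± 0.18 at day 1 (adjusted p = 0.164), -0.03 ± 0.18 at day 2 (adjusted p = 0.927) and -0.47 ± 0.18 at day 3 (adjusted p = 0.17). Exons of Mrpl47, a mitochondrial ribosomal protein gene on the other strand, overlap 11.6% of the exonic bases of Actl6a, and Mrpl47 went from a mean of 73.0 CPM at day 0 to 26.2 CPM at day 3. Whether reads were counted by strand is not stated in the labels, and the part of this overlap in the Actl6a values was not tested.

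Actl6b had 0 counts in both libraries of day 0 and of day 1, 3 and 0 counts on day 2, 42 and 50 counts on day 3, and 41, 23 and 21 counts in the sorted progenitors. In CPM the day 3 libraries had 1.32 and 1.63 and the sorted ones 2.45, 1.49 and 1.54, so the gene was detected from day 3 on and its day 3 and sorted levels overlapped. Taking 3 counts per library as the limit that a count of 0 allows, day 3 was at least 12.8-fold higher than day 0 and at least 14.6-fold higher than day 1. Against day 2 the summed counts were 92 and 3, a ratio of 26.7 after scaling to library size, with a 95% interval of 8.84 to 131.7 that covers counting error only. In edgeR the adjusted p of this step was 0.0469, and 2.81% of all genes were called higher there, but the gene entered the test only through the day 3 libraries, so nothing is read from that call. It was lost on leaving out day 2 replicate 1 (adjusted p = 0.11), day 2 replicate 2 (0.34), day 3 replicate 1 (0.287) or day 3 replicate 2 (0.14), and DESeq2 gave an adjusted p of 0.164 for day 3 against day 0, where edgeR gave 0.00235.

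Where it was detected at day 3 and after, Actl6b supplied 0.97% to 1.24% of the summed FPKM of the pair, and Actl6a was 79.8 to 102 times as abundant. The summed young neuron markers were also higher at day 3 than at day 2 (at least 1140 against at most 185 CPM). Their day 0 sum of 504.5 to 506.5 CPM came mostly from Stmn2 and Ina, with means of 311 and 121 CPM. Some markers were above their day 0 level by day 2, such as Dcx with means of 0.819, 2.09, 9.83 and 142.8 CPM at days 0 to 3. Others were not, such as Nefm with 7.58, 4.01, 5.79 and 214.5 CPM. Whether Actl6b followed the neuron markers was not tested. In such bulk samples, fewer cells of a type and less RNA per cell cannot be told apart. The sorted progenitors carried both Actl6b and those markers at levels that overlapped day 3.

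The starts of both genes were also read from RefSeq promoter windows of 300 bases on GRCm38.p6, 250 before and 50 after the start, because this pair is the most unequal of the families. The Actl6a window holds 21 CG dinucleotides, a number that 24.8% of 32851 promoters reach, and the Actl6b window holds 23, reached by 21.5%, against a median of 7. CG is its own reverse complement, so both strands give the same count, and 31068 of the promoters hold at least 1. The 120 bases just upstream of the starts, 5′ to 3′ on the plus strand, are at chr3:32708426-32708545 for Actl6a and at chr5:137553426-137553545 for Actl6b, with each CG in capitals and 11 in each.
Actl6a promoter: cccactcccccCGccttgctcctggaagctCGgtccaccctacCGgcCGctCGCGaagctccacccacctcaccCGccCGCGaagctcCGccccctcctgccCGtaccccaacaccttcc
Actl6b promoter: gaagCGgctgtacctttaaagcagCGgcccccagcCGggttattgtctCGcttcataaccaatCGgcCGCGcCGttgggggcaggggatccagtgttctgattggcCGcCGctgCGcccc

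Both members of the pair therefore start in CG-rich sequence, although one was read in every library and the other in only 6 of 11. The other 8 promoters held between 17 (Dpf3) and 62 (Phf10) CG.

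Smarcd1 (BAF60A) and Smarcd3 (BAF60C) encode alternative subunits that link the complex to transcription factors, and BAF60C is known from both heart or muscle and the nervous system. Smarcd1 lies at chr15:99702129-99713991 on the plus strand and Smarcd3 at chr5:24590818-24624411 on the minus strand of GRCm38.

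Smarcd3 had 1.46 and 2.098 CPM on day 0, 2.16 and 4.22 on day 1, 8.47 and 8.54 on day 2, 8.30 and 12.1 on day 3, and 16.9, 17.9 and 15.9 in the sorted progenitors. Days 2 and 3 overlapped, and the sorted libraries were above every unsorted library. Its day 2 step was 1.41 ± 0.38 on the log2 scale (edgeR, adjusted p = 0.0296) and its gain from day 0 to day 3 was 2.53 ± 0.40 (adjusted p = 0.000709), which held in all 18 other settings. The day 2 step was lost without day 1 replicate 1 (adjusted p = 0.144), without day 2 replicate 1 (0.132) or replicate 2 (0.122), and with a correction for GC content (0.74, adjusted p = 0.188). In sorted progenitors against day 3 the difference was 0.73 ± 0.29, with an unadjusted p of 0.0274 and an adjusted p of 0.242.

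Smarcd3 shares 48.2% of its exonic bases with genes on the opposite strand, mainly Chpf2, a chondroitin polymerizing factor, and Chpf2 also went from a mean of 6.22 CPM at day 0 to 25.1 CPM at day 3. In the sorted libraries Chpf2 had 16.7 to 31.8 CPM, which overlapped its 21 to 29.2 CPM at day 3. Without a stated counting strand, the reads of the 2 genes cannot be told apart over the shared bases. Muscle markers summed to at most 23.5 CPM in any library, and Myod1 was below 3 counts in all 11 libraries.

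Smarcd1 had 205 and 177 CPM on day 0, 153 and 184 on day 1, 247 and 274 on day 2, 246 and 252 on day 3, and 240.5, 277.5 and 284 in sorted progenitors. All libraries from day 2 on were above those of days 0 and 1. The day 2 step was 0.63 ± 0.16 on the log2 scale (edgeR, adjusted p = 0.0234), and the net difference at day 3 was 0.39 ± 0.16 (adjusted p = 0.0627), or 0.61 in log2(FPKM + 1) with limma (adjusted p = 0.0327). Over the 18 other settings the net difference ran from -0.26 to 0.62, so its direction depended on the setting. With a GC correction the day 2 step was 0.06 (adjusted p = 0.832), and it was lost without day 1 replicate 1 (0.51, adjusted p = 0.143) or without either day 2 library (adjusted p = 0.101 and 0.182). Smarcd1 transcripts have a GC content of 57.2% and those of Smarcd3 59.2%, and the day 1 libraries were those with the steepest trend along GC content.

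Smarcd3 was 1.32% and 4.01% of the summed FPKM of this pair on day 0, 7.14% and 9.27% on day 3, and 15.1%, 12.7% and 10.03% in sorted progenitors. Its share in the sorted libraries was above that of every unsorted library. Their other paralog, Smarcd2, is not in this share and had 23.1 to 41.9 FPKM over the 11 libraries.

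The fourth family, BAF45, holds proteins with paired PHD fingers that read histone tails. Phf10 (BAF45A) and Dpf2 (BAF45D) are the forms of dividing cells, Phf10 being a subunit of the PBAF variant, and Dpf1 (BAF45B) and Dpf3 (BAF45C) are the neuronal forms. On GRCm38 Phf10 lies at chr17:14945009-14961273 and Dpf2 at chr19:5896516-5913010, both on the minus strand, Dpf1 at chr7:29303951-29318243 on the plus strand, and Dpf3 at chr12:83213745-83487716 on the minus strand.

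Dpf3 had 0.272 and 0.30 CPM on day 0 (8 and 7 counts), 0.938 and 0.594 on day 1, 2.56 and 1.96 on day 2, 2.99 and 2.28 on day 3, and 3.65, 3.501 and 2.21 in sorted progenitors. The first 3 days did not overlap, while day 2, day 3 and the sorted progenitors did. Its net gain at day 3 was 3.19 ± 0.47 on the log2 scale (edgeR, adjusted p = 0.000478) and held in all 18 other settings. With 8 and 7 counts at day 0, it could enter the filtered tests only by being high later. Nothing is therefore read from its calls, for the net gain or for the single steps. The steps were 1.41 ± 0.49 at day 1 (adjusted p = 0.0716) and 1.57 ± 0.41 at day 2 (adjusted p = 0.0288), and the second was lost on leaving out day 1 replicate 1 (0.0549) or 2 (0.0986), or day 2 replicate 1 (0.198) or 2 (0.0913). No exon of another gene overlaps those of Dpf3 or Actl6b in GENCODE M21.

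Dpf1 had 7.55 and 6.68 CPM on day 0, 1.70 and 3.97 on day 1, 8.77 and 8.18 on day 2, 9.59 and 11.1 on day 3, and 16.1, 18.2 and 19.6 in sorted progenitors. Day 1 was below every other library, and the sorted progenitors were above every other library. The fall at day 1 was -1.32 ± 0.37 on the log2 scale (edgeR, adjusted p = 0.0362), the only fall called among the 10 genes at that step, where 8.91% of all genes were called lower. With limma this fall was not called in log2(FPKM + 1) (adjusted p = 0.0678, or 0.121 unfiltered), log2(FPKM + 0.1) (0.0812) or the deposited log2 values (0.0549). In edgeR with the replicate block the adjusted p was 0.0507. The return at day 2 was 1.58 ± 0.37 (adjusted p = 0.0192). From day 0 to day 3 the difference was 0.54 ± 0.36 and was not called (adjusted p = 0.227).

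The fall of Dpf1 was lost on leaving out any one library other than day 1 replicate 2, with the smallest value without day 1 replicate 1 (-0.84, adjusted p = 0.116) and adjusted p from 0.06 to 0.0943 without day 0 replicate 1 or 2, day 2 replicate 1 or 2, or day 3 replicate 1 or 2. Its return was lost without day 1 replicate 1 (1.10, adjusted p = 0.068), day 2 replicate 1 (0.108) or day 2 replicate 2 (0.0739). Among the 5 neuronal paralogs Dpf1 was thus the 1 with no net gain called by day 3. Its highest levels came after the sort, as did those of Smarcd3, and the group means of Actl6b and Dpf3 were also highest there.

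Phf10 had 137 and 170.1 CPM on day 0, 216 and 167 on day 1, 211 and 204 on day 2, 161 and 192 on day 3, and 219.6, 217 and 175 in sorted progenitors. Its day 0 and day 3 libraries overlapped, and their difference was 0.21 ± 0.18 on the log2 scale (edgeR, adjusted p = 0.357). With the GC correction it was 0.45 (adjusted p = 0.00174), and Phf10, at 42.4%, has the lowest GC content of the 10 genes. Dpf2 had 119 and 103 CPM on day 0, 97.4 and 126.6 on day 1, 134.6 and 139 on day 2, 125.6 and 128.7 on day 3, and 127.3, 143 and 140.3 in sorted progenitors. Its group means stayed between 111 and 137 CPM, and the difference from day 0 to day 3 was 0.21 ± 0.17 (adjusted p = 0.317).

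Per length, Phf10 and Dpf2 supplied nearly all of the family. Phf10 took means of 55.2% ± 5.55 (SD, n = 2), 61.1% ± 8.85, 57.1% ± 1.84 and 47.4% ± 1.99 of the summed FPKM of the 4 BAF45 genes at days 0, 1, 2 and 3, and 53.8% ± 3.496 (n = 3) in sorted progenitors. Dpf2 took 40.4%, 37.4%, 39.0%, 46.6% and 37.7% in the same order. Dpf1 went from 4.36% at day 0 through 1.24% and 3.10% to 5.19% at day 3 and 7.41% after the sort, and Dpf3 from 0.10% to 0.86% at day 3 and 1.06% after the sort.

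Taken by step, the second day brought the most calls. For day 2 against day 1, 5 of 10 genes were called, all higher (Smarca4, Smarcd1, Smarcd3, Dpf1 and Dpf3), against 9.65% of all genes called higher. The number was 0 without day 1 replicate 1, without day 2 replicate 1 or without day 2 replicate 2, although the log2 fold changes of these 5 genes stayed positive there.

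**Figure D3:**
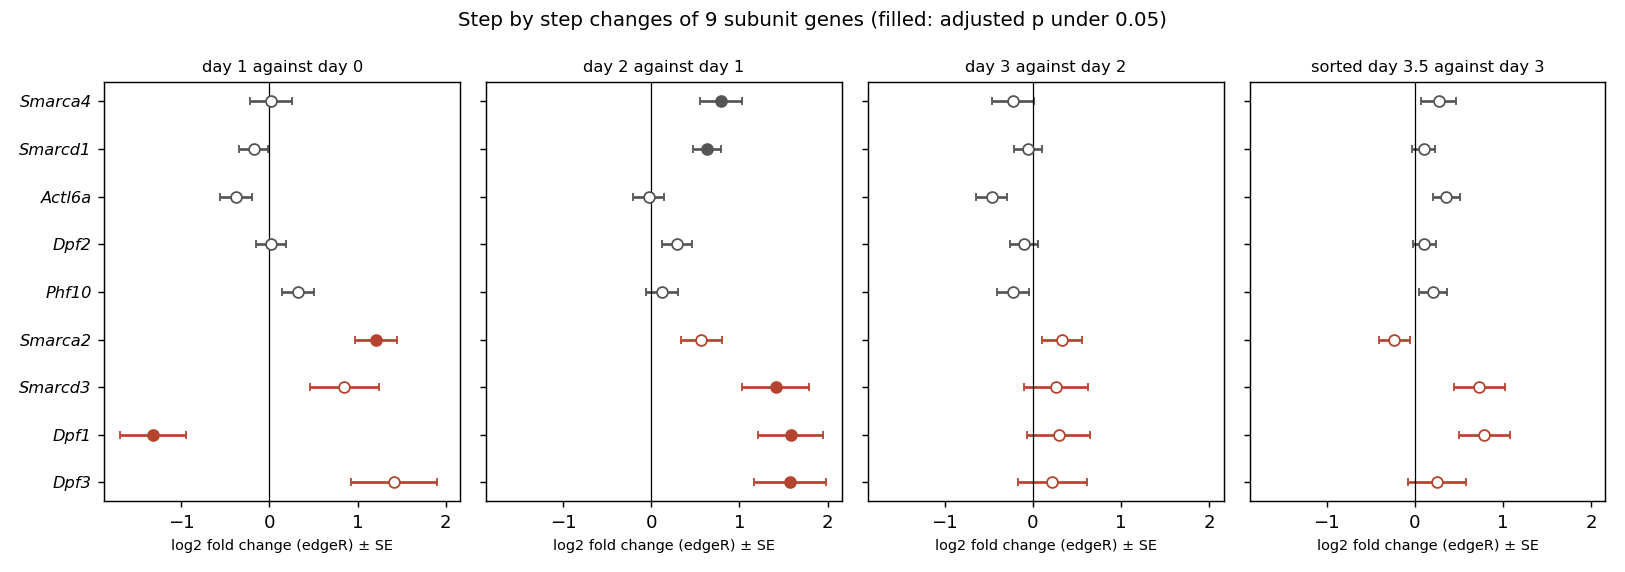
Log2 fold changes from edgeR with their standard errors are plotted for 9 genes at each of 4 steps, with stem cell paralogs in grey and neuronal paralogs in red, and filled points for an adjusted p under 0.05. Most filled points are at day 2 against day 1, and no point is filled for the sorted progenitors against day 3. Actl6b is left out because its early libraries hold no counts.

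Sorted progenitors were compared with the unsorted day 3 culture to see which paralogs the Prominin-1 cells carry. None of the 10 genes was called by edgeR, against 3.37% of all genes, and DESeq2 also called 0. Those with an unadjusted p under 0.05 numbered 3, all higher after the sort. The share of all genes under that value was not computed, so nothing is read from the number. They were Smarcd3, with the values given for its family, Dpf1 at 0.79 ± 0.29 (log2, adjusted p = 0.2) and Actl6a at 0.36 ± 0.15 (adjusted p = 0.275). Their sorted and day 3 libraries did not overlap, and neither did those of Smarca4 and Smarca2. The share of all genes without overlap was not computed either, so nothing is read from how many did not overlap. With the GC correction 2 genes were called higher, Dpf1 (0.95, adjusted p = 0.0232) and Smarca4 (0.39, adjusted p = 0.0342), against 300 of 17006 genes. Extraembryonic endoderm markers, which mark another cell type of such cultures, went from 142 to 181.5 CPM at day 3 to 34.4 to 40.1 CPM after the sort, and their part in these differences was not tested.

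Neuronal paralogs were therefore present in the sorted progenitors at levels not called different from day 3, except for Dpf1 with the GC correction. The log2 differences were -0.23 ± 0.18 for Smarca2, 0.32 ± 0.51 for Actl6b, 0.25 ± 0.33 for Dpf3, 0.73 ± 0.29 for Smarcd3 and 0.79 ± 0.29 for Dpf1. A difference that was not called is not thereby shown to be absent.

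The remaining subunits were read from a list of 20 genes of BAF, PBAF and the non-canonical ncBAF complex. At day 3 against day 0, 8 were called higher and 5 lower in edgeR, against 27.6% and 26.3% of all genes, so that the number lower was near the share over all genes. The median log2 fold change of the list was 0.23. Besides the families above, the next 3 pairs, and Gltscr1 with Gltscr1l below, shifted toward the paralog that was the scarcer of the 2 at day 0. Smarcc2 (BAF170), a core scaffold scarce in esBAF, rose by 2.05 ± 0.16 (adjusted p = 1.41e-05). Smarcc1 (BAF155), its stem cell counterpart, fell by 0.60 ± 0.20 on the log2 scale (adjusted p = 0.0281), a call kept in 11 of the 18 other settings. Among the settings that lost it were those without day 0 replicate 2, day 2 replicate 2 or day 3 replicate 1. The edgeR test of any change over days 0 to 3 did not call Smarcc1 (adjusted p = 0.0643).

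Ss18l1 (CREST), the neuronal counterpart of SS18, rose by 1.35 ± 0.23 (adjusted p = 0.00115) and Ss18 fell by 0.83 ± 0.14 on the log2 scale (adjusted p = 0.00105). Arid1b (BAF250B) rose by 1.71 ± 0.20 (adjusted p = 0.000148) and Arid1a (BAF250A), the esBAF form, gave -0.04 ± 0.16 (adjusted p = 0.843), but -0.62 with the GC correction (adjusted p = 0.00874). In FPKM, Smarcc2 went from 4.32% ± 0.84 (SD, n = 2) of its pair at day 0 to 22.8% ± 3.43 at day 3, Ss18l1 from 2.41% ± 0.09 to 10.4% ± 1.10, and Arid1b from 7.48% ± 0.35 to 21.5% ± 0.50. In the sorted progenitors these shares were 25.4%, 11.2% and 22.0%.

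Other members of the list with the smallest adjusted p were Bcl7a, an accessory subunit, which rose by 1.84 ± 0.17 (adjusted p = 4.41e-05), and Smarce1 (BAF57), the HMG-box subunit, which rose by 1.39 ± 0.16 (adjusted p = 0.00013). Gltscr1l, an ncBAF subunit, fell by 1.57 ± 0.21 on the log2 scale (adjusted p = 3e-04), while its paralog Gltscr1 rose by 1.99 ± 0.32 (adjusted p = 0.000831). From day 0 to day 3 the mean FPKM of Gltscr1 went from 0.70 to 3.19 and that of Gltscr1l from 6.33 to 2.50. Bcl11a, a zinc finger subunit, fell by 4.04 ± 0.58 (adjusted p = 0.000436), from 229 and 80 counts at day 0 to 9 and 12 at day 3. Of the unsorted libraries after day 0, only day 3 replicate 2 reached the filter's minimum of 10 counts for Bcl11a. Bcl11a could thus enter the test only by being high at day 0, so nothing is read from its call or its part in the numbers called lower. Its relative Bcl11b was called lower too, but not without day 3 replicate 1 (adjusted p = 0.0632) or 2 (0.0703). By step, 5 of the 20 were called at day 1, with 1 higher against 12% of all genes and 4 lower against 8.91%. At day 2, 5 were called, all higher, against 9.65%, and at day 3 it was 0, against 2.81% of all genes called higher, where 3 had an unadjusted p under 0.05 and DESeq2 called 1. Leaving out day 1 replicate 1, day 2 replicate 1 or day 2 replicate 2 brought the day 2 number to 3, 2 and 1. In sorted progenitors against day 3 edgeR called 0, against 3.37% of all genes, with 5 at an unadjusted p under 0.05, and DESeq2 called 3. The share of all genes at an unadjusted p under 0.05 was not computed for either comparison, so nothing is read from those numbers.

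**Figure D4:**
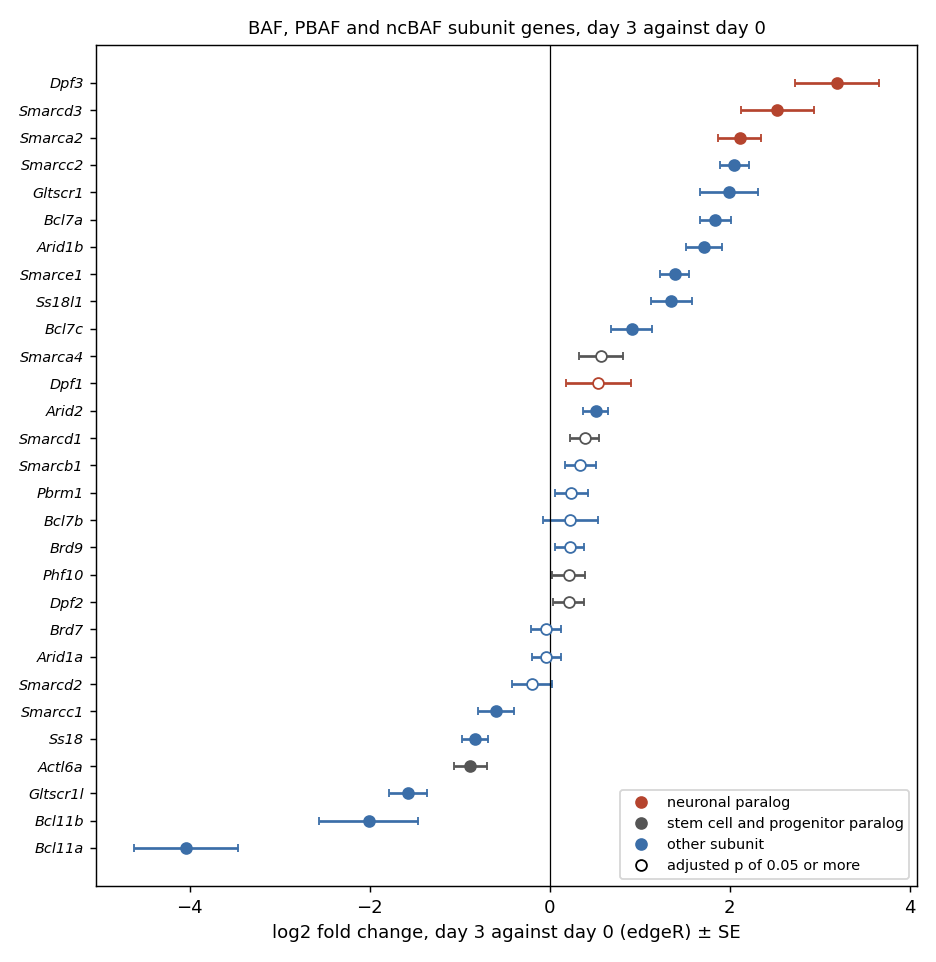
The log2 fold change of day 3 against day 0 with its standard error (edgeR) is plotted for 29 subunit genes in order of size, colored by class, with filled points for an adjusted p under 0.05. Dpf3, Smarcd3, Smarca2 and Smarcc2 are at the top, and Actl6a, Gltscr1l, Bcl11b and Bcl11a are at the bottom.

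Rest encodes the repressor that silences neuronal genes, among them microRNA genes of the miR-9 and miR-124 families, in cells that are not neurons. Its 11 libraries had 535 and 689 CPM on day 0, 205.5 and 176 on day 1, 143 and 138.7 on day 2, 125.5 and 121 on day 3, and 134, 122 and 124.8 in sorted progenitors. The fall at day 1 was 1.68 ± 0.17 on the log2 scale (edgeR, adjusted p = 0.000503) and from day 0 to day 3 it fell by 2.31 ± 0.17 (adjusted p = 1.33e-05). Rest thus reached most of its lower level by day 1, when Actl6b still had 0 counts, and Actl6b was first above 3 counts at day 3.

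The genes whose log2 CPM over the 11 libraries were most like those of each neuronal paralog were sought among 11205 genes by Pearson's r, as a description of libraries that share days and depth. For Actl6b they were Rab3c (r = 0.990) and Syt1 (0.989), which encode synaptic vesicle proteins, and Gng2 (0.986), a G protein subunit. Smarca2 was most like Pknox2 (0.992), a TALE homeobox gene, Tgfbr3 (0.989) and Mkl2 (0.988). Smarcd3 was most like Dcp1b (0.989), Nr2f1 (0.984), a nuclear receptor gene of the developing brain, and Khdrbs3 (0.982).

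For Dpf3 they were Msl1 (0.988), Fzd3 (0.986), a Wnt receptor gene of axon tracts, and Astn1 (0.984), a neuronal migration gene. Dpf1 had looser neighbours, with Emc1 (0.977), Ccdc151 (0.961) and Rab24 (0.960). The 5 neuronal paralogs shared none of these 15 genes, but only the 3 most alike were kept for each, so this does not show that their courses differ. The steps called higher among these 5 were at day 1 for Smarca2, and at day 2 for Smarcd3, Dpf1 and Dpf3, with Actl6b first above 3 counts at day 3. These calls do not order the genes in time, and nothing is read from that of Dpf3. At day 1 the log2 fold change was 1.41 ± 0.49 for Dpf3 and 0.85 ± 0.39 for Smarcd3, not called, against 1.21 ± 0.24 for Smarca2. The day 2 calls were lost without day 1 replicate 1 or either day 2 library.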

How the data were processed

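RNA was measured by polyA-selected sequencing (Illumina TruSeq, per the labels' protocols) in 11 libraries. The authors deposited gene counts, log2 values and FPKM. Per the submitters' processing notes, the tools, named with no roles, include TopHat2 2.0.4, HTSeq 0.6.1 and Cufflinks 2.1.1, and the builds are GRCm38 and mm10. Neither annotation nor strand setting is stated there. Of 38197 genes in the deposited table, 104 had fractional values, so the deposited values were taken for expected counts and rounded. The deposited log2 values equal log2 CPM recomputed from the counts with no TMM factors, with a largest difference of 5.15e-14. FPKM were used as deposited by the authors.

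Counts were tested in edgeR 4.0.16 (R 4.3.3) with TMM, filterByExpr (minimum count 10) and the quasi-likelihood F test, with Benjamini-Hochberg adjustment over all genes tested and a threshold of 0.05. Days 0 to 3 were fitted on 8 libraries (16810 genes) and the sorted progenitors on all 11 (17006 genes), without replicate blocks. The SE is the log2 fold change over the square root of F. Levels below 3 counts were at the floor, and intervals and floors cover counting error only. Scripts were tested on simulated data.

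The alternatives tried were RLE factors, no filter, DESeq2 1.42.0, other libraries in the fit, a replicate block, log2(FPKM + 1) or log2(FPKM + 0.1) with limma 3.58.1 for genes with an FPKM of at least 1 in 2 libraries, no FPKM filter, the deposited log2 values with limma, CPM ratios, and leaving out each library. A GC offset (lowess, span 0.3, for the 92.8% of tested genes with a GC content) was chosen after seeing the data.

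The rule for named genes took all 10 genes, then the 6 smallest adjusted p among called genes of the 20 other subunits plus Arid1a, Arid1b, Smarcc1, Smarcc2, Ss18 and Ss18l1, then Rest, then the 3 most alike genes for each neuronal paralog with at least 5 CPM in some group. Bcl11b, Gltscr1, Chpf2 and Mrpl47 were named after their values were seen. The genes, lists and tests were chosen with earlier results of these data known. Positions came from GENCODE M21 on GRCm38, and promoters and the microRNA from RefSeq. Marker lists, in summed CPM, were pluripotent, neural progenitor, young neuron, mature neuron, extraembryonic endoderm, muscle and glia, the last at 10.6 to 52.6 CPM in every library.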

Additional observations from a re-analysis of the deposited data

How the results depend on the processing

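Of 919 alternative values of the log2 fold changes of the 10 genes, 845 kept their direction, or were not called before and after, 55 lost their call and 19 gained one, and none of the called ones changed sign. The day 3 against day 0 calls of Smarca2, Smarcd3, Dpf3 and Actl6a held in every setting run, though Dpf3 could enter the filtered tests only through its later libraries. The number of the 10 genes called was between 4 and 7 for that comparison (5 as reported) and between 6 and 9 for any change (8 as reported). For day 1 against day 0, 2 as reported, it was 1 with the replicate block, 1 with log2(FPKM + 1), 1 with log2(FPKM + 0.1), 0 with log2(FPKM + 1) unfiltered, and 1 to 2 on leaving out 1 library. For day 2 against day 1, 5 as reported, it was 3 with the block, 1 with each of the 3 FPKM settings, and 0 to 5 on leaving out 1 library. For day 3 against day 2, 1 as reported, it was 0 with DESeq2, 0 with the block, 0 with log2(FPKM + 1), 0 with log2(FPKM + 0.1), 0 with the deposited log2 values, 2 with the GC offset, and 0 to 1 on leaving out 1 library. For sorted progenitors against day 3, 0 as reported, it was 2 with the GC offset. The cause was not tested, except that leaving out a library also leaves fewer samples.

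In CPM in place of FPKM the change of the log2 ratio was 1.53 in place of 1.92 for Smarca2 to Smarca4 and 0.33 in place of 0.04 for Dpf1 to Dpf2 (day 3 against day 0), and 0.12 in place of 0.64 for Dpf3 to Dpf2 and 0.59 in place of 0.31 for Dpf1 to Phf10 (sorted progenitors against day 3). The cause was not tested. No ratio to Actl6b can be given for day 0.

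Over all genes the number called for day 3 against day 2 ranged from 13 (without day 3 replicate 1) to 2437 (GC offset) around 684, for day 1 against day 0 from 2180 (without day 0 replicate 2) to 5988 (GC offset) around 3513, for day 2 against day 1 from 1001 (without day 2 replicate 1) to 4932 (GC offset) around 3302, and for the sorted progenitors from 184 (without day 3 replicate 1) to 1181 (GC offset) around 573. With the deposited log2 values, which carry no TMM factors, the median of all genes shifted to 0.151 at day 1 and 0.175 at day 3 against day 0, and 71.85% of calls at day 1 were higher in place of 57.36%. The GC offset gave 57.69% in place of 69.15% for day 3 against day 2 and 25.4% in place of 12.91% for the sorted progenitors.

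Replicate numbers did not pair the libraries. The correlation of the replicate 1 minus replicate 2 differences between days ran from -0.388 (days 0 and 1) to 0.159 (days 1 and 2), so a call lost under the replicate block is not read as a weaker effect. Depth limits Actl6b, at 50 or fewer counts per library, and Dpf3 at day 0.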
